A study of Mus musculus with 5 samples.

Results

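The insulin receptor signalling core described here is a set of 10 mouse genes, chosen by name from the insulin and IGF receptor pathway and found in the deposited table by Ensembl gene ID and symbol. All 10 were present among 78334 genes, and all 10 passed the low-count filter that left 29855 genes for testing. They were Insr (ENSMUSG00000005534), Igf1r (ENSMUSG00000005533), Irs1 (ENSMUSG00000055980), Irs2 (ENSMUSG00000038894), Pik3r1 (ENSMUSG00000041417), Akt1 (ENSMUSG00000001729), Akt2 (ENSMUSG00000004056), Tbc1d4 (ENSMUSG00000033083), Foxo1 (ENSMUSG00000044167) and Grb14 (ENSMUSG00000026888). Together they held 0.0563% to 0.0758% of the counts of a library.

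Insulin and the insulin-like growth factors bind receptor tyrosine kinases, which phosphorylate the substrates Irs1 and Irs2. The phosphorylated substrates recruit phosphoinositide 3-kinase, whose lipid product activates the Akt kinases. In fat, Akt then releases the brake that Tbc1d4 places on glucose transporter vesicles and keeps the transcription factor Foxo1 out of the nucleus, so that glucose is taken up and lipid is stored.

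The RNA came from samples labelled visceral adipose tissue of male C57BL/6 mice and gave 5 libraries. The control library stands for standard chow and vehicle. The diabetes group (2 libraries, vehicle) and the curcumin group (2 libraries) share the same induction: streptozotocin, which destroys the insulin-secreting beta cells, was injected intraperitoneally on day 2 of life at 70 mg/kg, and from week 3 of life the animals ate food with 60% of calories as fat, for 8 weeks. The curcumin group then received this turmeric polyphenol by gavage, 50 mg/kg daily over 28 days, starting at an age of 11 weeks. No label ties a library to an animal, so p-values describe the variation among these libraries, part of which may be technical, and the control has no spread of its own.

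Total counts ran from 25378046 to 42422890 per library. Levels are CPM, counts scaled to a library total of 1e6. The libraries did not match each other in tissue markers. Epididymal genes (17 genes) took 7.92% of the counts of control 1, 7.61% of diabetes 1 and 11.6% of curcumin-treated 2, but 0.602% of curcumin-treated 1 and 9 counts in diabetes 2, where 14 of the 17 were at 0. In curcumin-treated 1 a single gene, Crisp1, held 165926 of the list's 167397 counts. Crisp1 was higher there, at 5965 CPM, than in any other library (0 to 2610 CPM), while Gpx5 (19.6 CPM) and Lcn5 (8.41 CPM) were far below their levels in control 1 (29812 and 6554 CPM). Adipocyte genes (18 genes) took 3.88% of diabetes 2 and 0.474% of curcumin-treated 1, against 0.0199% to 0.0726% of the others, and Retn, Pparg, Adrb3 and Aqp7 were at 0 in diabetes 1. Smooth muscle genes took 4.48% of curcumin-treated 1 and at most 0.250% of any other library. Macrophage genes took 0.292% of diabetes 2 and 0.0160% to 0.0540% of the rest. Diabetes 2 and curcumin-treated 1 therefore stood apart from their own groups in these markers. In bulk RNA, fewer cells of a type and less RNA per cell cannot be told apart.

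Of the receptors, Igf1r ranged more widely over the libraries than Insr. Igf1r, the IGF1 receptor, which promotes growth, was at 242 CPM in control 1. Diabetes 1 held 295 CPM and diabetes 2 only 15.5 CPM, while curcumin-treated 1 held 49.4 CPM and curcumin-treated 2 held 231 CPM. The highest library was thus 19.0 times the lowest, both were diabetic, and the values of the groups overlapped. Igf1r was the member with the widest range: 92.5% of the genes tested ranged less in log2(CPM + 0.5), which narrows the range of scarce genes. Diabetes 2 and curcumin-treated 1, the libraries with the lowest summed epididymal shares, lay below the other 3 for Igf1r, as for 18.4% of all genes tested. The part of the epididymal share in the Igf1r level was not tested.

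Insr, the insulin receptor, moved far less. It was at 78.6 CPM in control 1, 64.6 and 98.5 CPM in diabetes 1 and 2, and 54.6 and 49.4 CPM in curcumin-treated 1 and 2. Both curcumin-treated libraries lay below the control and both diabetic libraries, and the control lay between the diabetic ones. Group means were 81.6 ± 24.0 CPM in diabetes and 52.0 ± 3.69 CPM with curcumin (SD, n = 2 each).

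Within a library, the receptors compare per kilobase of their longest annotated transcript, 9.355 kb for Insr and 11.409 kb for Igf1r. The ratio of Insr to Igf1r was 0.396 in control 1, 0.268 in diabetes 1 and 0.261 in curcumin-treated 2. It reached 1.35 in curcumin-treated 1 and 7.76 in diabetes 2. Igf1r was therefore the more abundant receptor in 3 libraries and Insr in the other 2, and the balance split the diabetic pair and the curcumin-treated pair alike.

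The stretch before the start of Igf1r is shown because this gene spans the widest range of the set. It is the 250 bases before the annotated start, chr7:67952007-67952256 on the plus strand of GRCm38.p6, from RefSeq, written 5′ to 3′ with GGGCGG, the core of the GC box bound by Sp1, in capitals.
Igf1r: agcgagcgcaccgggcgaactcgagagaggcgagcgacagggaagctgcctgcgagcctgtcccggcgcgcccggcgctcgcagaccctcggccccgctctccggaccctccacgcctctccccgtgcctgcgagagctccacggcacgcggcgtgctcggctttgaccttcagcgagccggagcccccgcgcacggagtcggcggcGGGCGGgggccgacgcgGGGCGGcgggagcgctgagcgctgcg
The window is 77.6% G and C and holds 42 CG pairs. GGGCGG occurs in it at 43 and 26 bases before the start, on the gene strand, and on either strand in 32.7% of 32851 RefSeq promoter windows of that length. Of the 10 members, 9 had a window in the table, which holds none for Insr. GGGCGG occurred in a window of each of these 9, from 1 match for Irs2, Akt2 and Tbc1d4 to 5 for Grb14. Akt2 had 4 windows and Akt1 and Pik3r1 had 2 each, so this count per gene does not compare with the share per window.

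**Figure D1:**
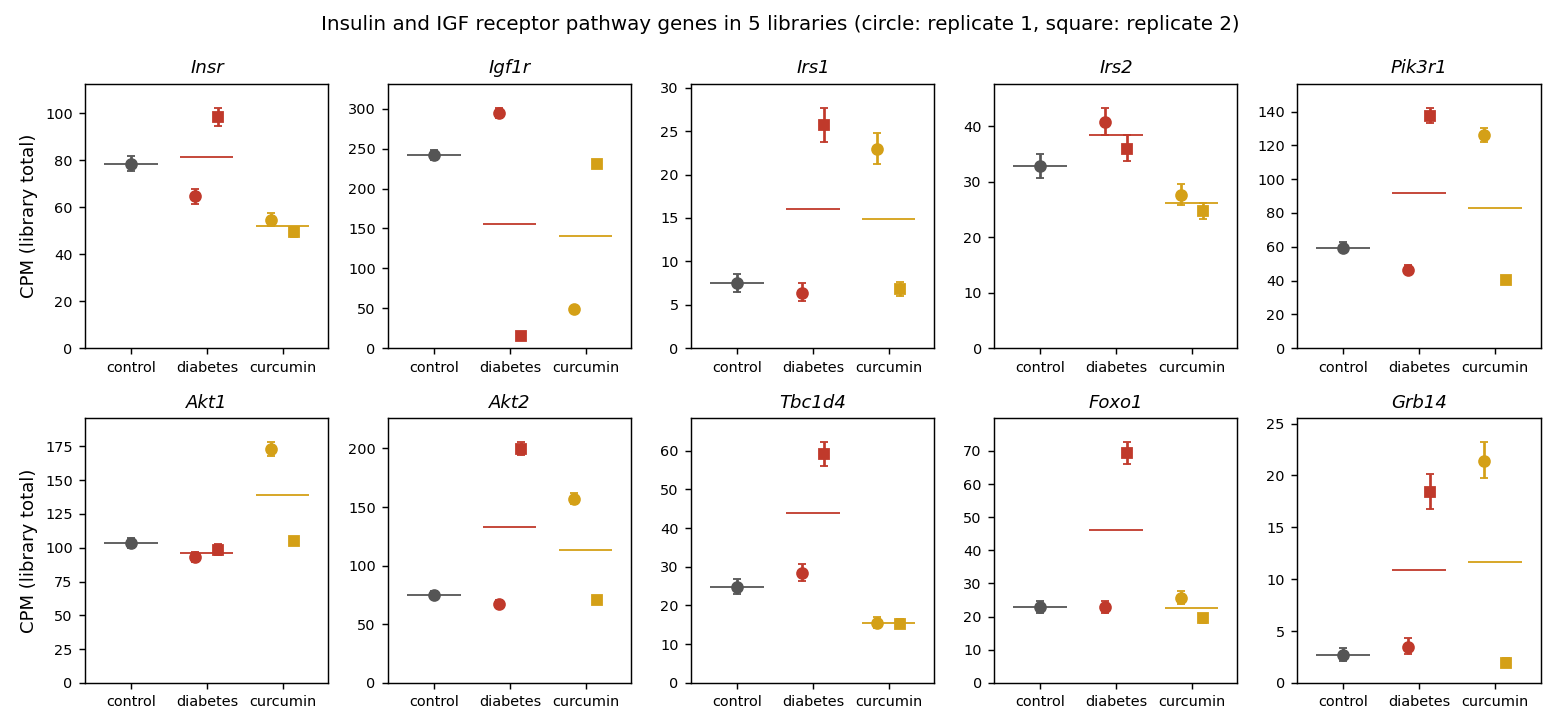
Level of each of the 10 genes in CPM of the library total (y axis from 0) in the control, diabetes and curcumin groups; circles are replicate 1, squares replicate 2, bars the 95% Poisson interval of the count and horizontal lines the group mean. Insr, Irs2 and Tbc1d4 lie lower in both curcumin-treated libraries than in both diabetic ones, while the pairs of Igf1r, Irs1, Pik3r1, Akt2 and Grb14 split within both groups.

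The receptor substrates behaved differently from each other. Irs2 was at 32.7 CPM in control 1, 40.7 and 35.9 CPM in diabetes 1 and 2, and 27.6 and 24.7 CPM in curcumin-treated 1 and 2. Both diabetic libraries lay above the control, and both curcumin-treated libraries lay below it. The means were 38.3 ± 3.40 CPM in diabetes and 26.1 ± 2.09 CPM with curcumin (SD, n = 2 each). Irs2 was the steadiest member, and only 6.98% of the genes tested had a narrower range of log2(CPM + 0.5) over the 5 libraries. Reads of an antisense gene, 9530052E02Rik, which overlaps Irs2 in the GENCODE annotation and held 11 to 75 counts, cannot be told apart from those of Irs2, since the strand setting of the counting is not given.

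Irs1 was scarcer. It was at 7.47 CPM in control 1, 6.40 and 25.7 CPM in diabetes 1 and 2, and 22.9 and 6.77 CPM in curcumin-treated 1 and 2. The high values were those of diabetes 2 and curcumin-treated 1, so the groups overlapped. Per kilobase, Irs2 exceeded Irs1 in every library, with a ratio of 6.34 in control 1, 9.20 and 2.03 in diabetes 1 and 2, and 1.74 and 5.27 in curcumin-treated 1 and 2.

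The windows before the starts of both substrate genes are shown because these related genes ranged so differently while both windows hold TGTTTTG, the letters of the insulin response element of the human IGFBP1 gene, a FoxO binding motif. They are chr1:82291440-82291689 for Irs1 and chr8:11008930-11009179 for Irs2, both on the minus strand of GRCm38.p6, from RefSeq, 5′ to 3′, with TGTTTTG in capitals.
Irs1: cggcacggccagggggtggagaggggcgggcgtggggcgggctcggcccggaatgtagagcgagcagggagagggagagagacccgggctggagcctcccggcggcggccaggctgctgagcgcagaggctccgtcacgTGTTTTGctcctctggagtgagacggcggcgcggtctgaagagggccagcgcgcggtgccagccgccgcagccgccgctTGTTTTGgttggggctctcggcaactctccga
Irs2: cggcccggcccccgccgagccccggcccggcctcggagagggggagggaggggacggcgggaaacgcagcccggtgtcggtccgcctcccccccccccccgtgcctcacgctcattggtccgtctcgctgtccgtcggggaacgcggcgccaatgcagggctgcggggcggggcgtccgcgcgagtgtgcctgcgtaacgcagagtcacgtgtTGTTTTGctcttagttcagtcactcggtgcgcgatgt
The letters occur 2 times before Irs1, at 111 and 32 bases from the start, and at 37 bases before Irs2, each on the gene strand. On either strand they occur in 5.56% of the 32851 windows, and in none of the windows of the other 7 members that have one. A match of letters is a description and not a binding site.

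Grb14, an adaptor that binds the activated insulin receptor and inhibits its kinase, was the member with the fewest counts in control 1, diabetes 1 and curcumin-treated 2. It was at 2.70 CPM in control 1 (73 counts, 95% Poisson interval 2.12 to 3.40 CPM), 3.50 and 18.4 CPM in diabetes 1 and 2, and 21.4 and 1.93 CPM in curcumin-treated 1 and 2. The same libraries as for Irs1 were high, and the spread within the curcumin-treated pair was 11.1-fold.

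Pik3r1 encodes the p85 regulatory subunit that docks phosphoinositide 3-kinase on the substrates. It was at 59.5 CPM in control 1, 46.3 and 138 CPM in diabetes 1 and 2, and 126 and 40.1 CPM in curcumin-treated 1 and 2. Akt2, the Akt kinase that carries most of the insulin effect on glucose uptake in fat and muscle, was high in the same pair of libraries, at 74.6 CPM in control 1, 67.2 and 200 CPM in diabetes 1 and 2, and 157 and 70.5 CPM in curcumin-treated 1 and 2. For neither gene did the diabetic and curcumin-treated groups separate.

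Akt1, the Akt kinase more closely tied to growth, was at 103 CPM in control 1, 93.4 and 98.5 CPM in diabetes 1 and 2, and 173 and 105 CPM in curcumin-treated 1 and 2. Both curcumin-treated libraries lay above the rest. However, the 95% Poisson interval of curcumin-treated 2 (101.8 to 108.0 CPM) overlapped those of control 1 (99.6 to 107.3 CPM) and diabetes 2 (94.7 to 102.4 CPM). The ratio of Akt2 to Akt1 per kilobase was 0.427 in control 1 and 0.426 in diabetes 1. It was 0.537 in curcumin-treated 1 and 0.398 in its partner. In diabetes 2 it was 1.20, so Akt1 led in 4 libraries and Akt2 in the adipocyte-rich library.

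**Figure D2:**
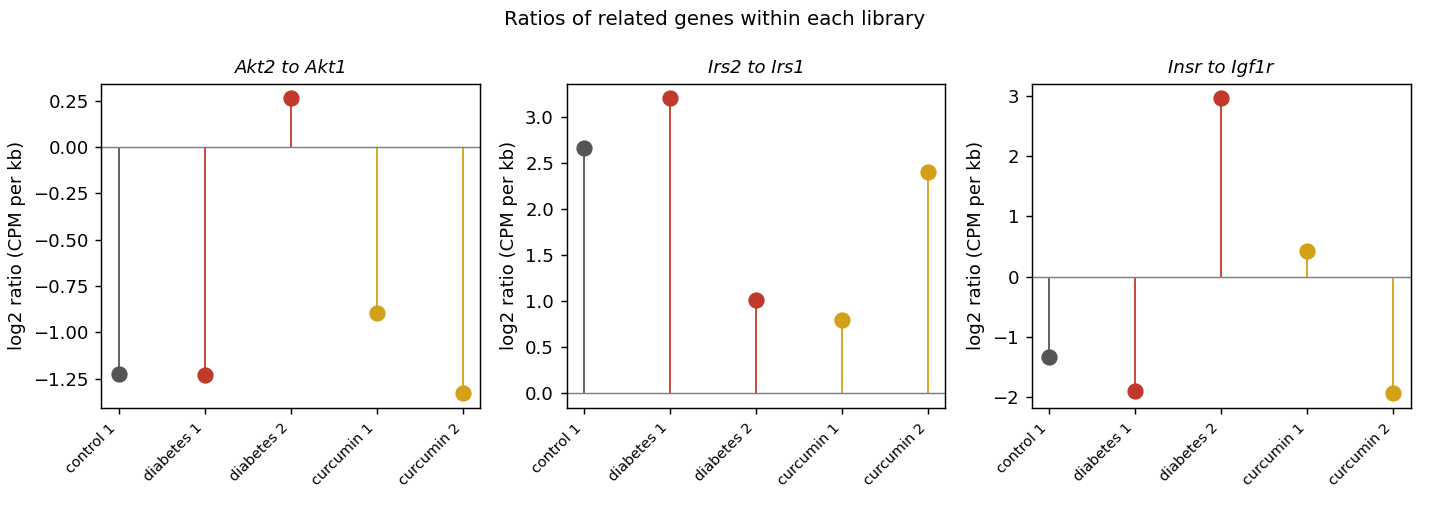
Within-library log2 ratios of CPM per kilobase of the longest transcript for Akt2 to Akt1, Irs2 to Irs1 and Insr to Igf1r (y axis) in the 5 libraries (x axis; grey control, red diabetes, yellow curcumin-treated). Diabetes 2 stands alone above 0 for Akt2 to Akt1, and diabetes 2 and curcumin-treated 1 lie above 0 for Insr to Igf1r.

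At the effector end, Tbc1d4, the Akt substrate that restrains glucose transporter vesicles, was at 24.9 CPM in control 1, 28.5 and 59.1 CPM in diabetes 1 and 2, and 15.6 and 15.3 CPM in curcumin-treated 1 and 2. Both diabetic libraries were above the control and both curcumin-treated libraries below it. The 95% Poisson intervals of diabetes 1 (26.5 to 30.6 CPM) and control 1 (23.1 to 26.9 CPM) overlapped. The curcumin-treated libraries were within 1.02-fold of each other for Tbc1d4. Their smooth muscle shares were 4.48% and 0.218%. The diabetic libraries differed 2.07-fold for it, with adipocyte shares of 0.0199% in diabetes 1 and 3.88% in diabetes 2. The part of either share in the Tbc1d4 level was not tested. Foxo1 was at 22.9 CPM in control 1, 22.7 and 69.2 CPM in diabetes 1 and 2, and 25.7 and 19.5 CPM in curcumin-treated 1 and 2. Only diabetes 2 was far from the other libraries for Foxo1.

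Across the set, 6 of 10 members were highest in diabetes 2, against 22.0% of all genes tested. The share was 36.0% (27 of 75) for the other tested genes of insulin and IGF signalling described below. Irs1, Pik3r1, Akt2, Foxo1 and Grb14 (5 of 10) were higher in both diabetes 2 and curcumin-treated 1 than in the other 3 libraries. This held for 19.2% of all genes tested and 40.0% of those 75. For Foxo1 the 95% Poisson interval of curcumin-treated 1 (23.8 to 27.6 CPM) overlapped those of control 1 (21.2 to 24.8 CPM) and diabetes 1 (20.9 to 24.7 CPM). Diabetes 2 and curcumin-treated 1 were also the libraries with the highest adipocyte shares, 3.88% and 0.474%. The part of those shares in the members' levels was not tested. Per kilobase, Akt1 was the most abundant member in 4 libraries (34.7 to 64.3 CPM per kb) and Akt2 in diabetes 2 (43.9 CPM per kb). The least abundant per kilobase was Irs1 in control 1 and diabetes 1, Grb14 in curcumin-treated 2, Tbc1d4 in curcumin-treated 1 and Igf1r in diabetes 2. With the merged length of all exons in place of the longest transcript, Grb14 was the least abundant in control 1 and diabetes 1.

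**Figure D3:**
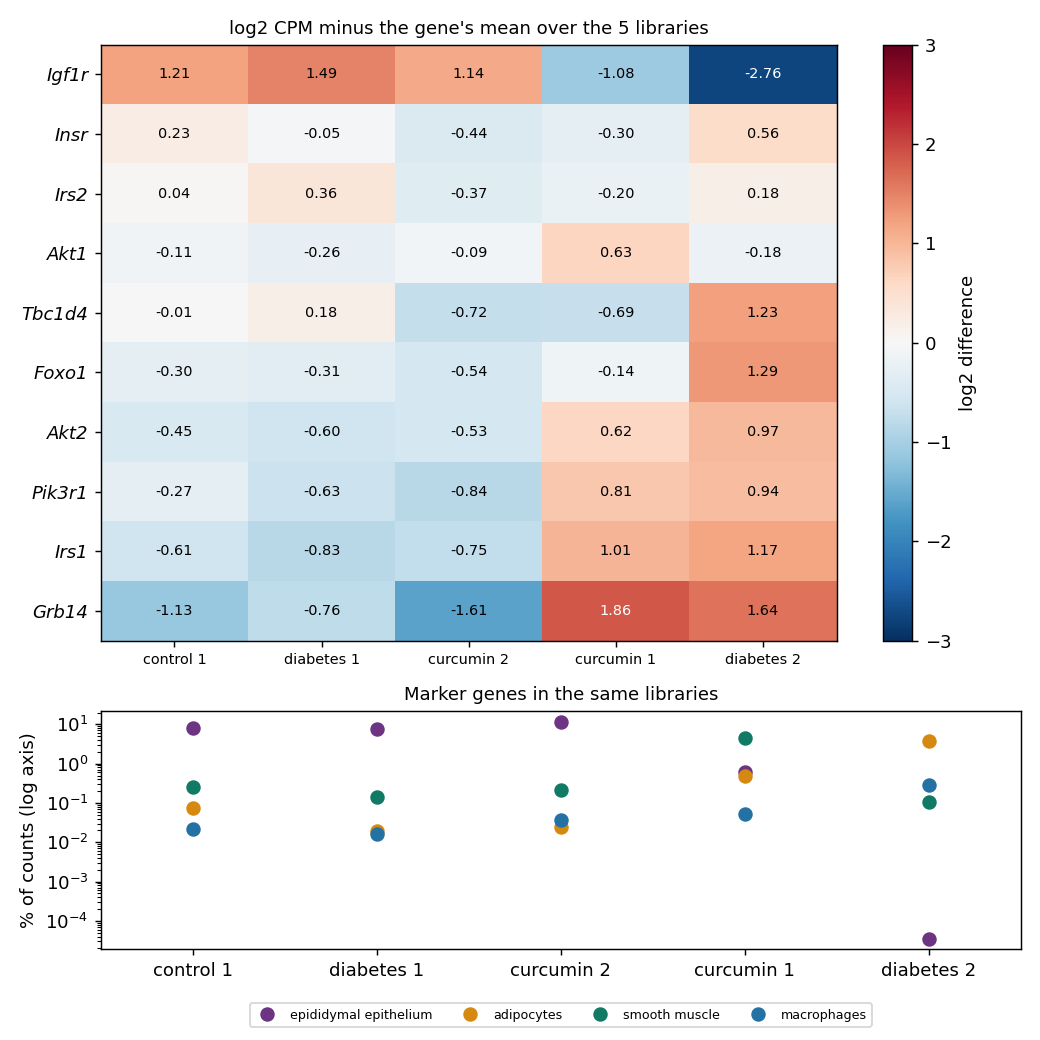
Upper panel, log2 CPM of each gene minus its mean over the 5 libraries, red above and blue below; lower panel, the share of counts held by marker genes of 4 cell types on a log axis, with libraries in the same order. Igf1r is at −2.76 in diabetes 2, where epididymal genes are at their lowest share, and Grb14, Irs1, Pik3r1 and Akt2 are above their means only in curcumin-treated 1 and diabetes 2.

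Curcumin-treated diabetes was set against untreated diabetes. Insr, Irs2 and Tbc1d4 lay lower in both curcumin-treated libraries than in both diabetic ones and Akt1 lay higher, with either scaling to the library total or TMM factors. Of the 10 members 3 were thus on the lower side, against 9.72% of all genes tested, and 1 on the higher side, against 17.9%. For Akt1 the 95% Poisson intervals of curcumin-treated 2 and diabetes 2 overlapped. Exact permutation of 2 against 2 libraries cannot give a p below 0.333. The fitted log2 fold change was −1.55 for Tbc1d4 (SE 0.59, unadjusted p = 0.0489), −0.68 for Insr (SE 0.49), −0.56 for Irs2 (SE 0.43) and 0.50 for Akt1 (SE 0.48) in edgeR's quasi-likelihood test.

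No member passed the threshold of an adjusted p of 0.05 in that test. The adjusted p was 0.852 for Tbc1d4, Insr, Irs2 and Foxo1 and 0.867 to 1 for the others in edgeR, after Benjamini-Hochberg adjustment over all genes. Over all genes edgeR called 0 (0.0%), with 700 (2.34%) at an unadjusted p under 0.05, and Tbc1d4 was the member among these. Over the alternatives the unadjusted p of Tbc1d4 ran from 0.0201 without diabetes 1 to 0.224 without diabetes 2, and it was 0.0992 with the replicate block, 0.0989 in DESeq2 and 0.0928 in limma-voom, so its place under 0.05 depended on the setting. limma-voom also called 0 (0.0%). DESeq2 called 95 genes (0.318% of all genes tested), none of them a member, and gave no adjusted p for 10419 genes.

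Foxo1 had a fold change of −1.10 (SE 0.70), Akt2 of −0.33 (SE 0.74), Pik3r1 of −0.26 (SE 0.80), Irs1 of −0.23 (SE 0.95), Grb14 of −0.07 (SE 1.33) and Igf1r of 0.01 (SE 1.38), all log2. In all, 8 of 10 members were negative, against 48.1% of all genes, and their median was −0.29 against 0.05 for all genes. When diabetes 2 was left out, log2 fold changes were −0.55 for Irs2, −0.79 for Tbc1d4 and −0.22 for Insr, while they turned to 0.07 for Foxo1, 0.81 for Akt2, 0.88 for Pik3r1, 1.25 for Irs1 and 1.74 for Grb14, and to −0.91 for Igf1r. Without diabetes 1 that of Igf1r was 3.14. Across genes, the curcumin difference rose with the GC content of the transcript (Spearman rho 0.190 over 24687 genes, which are not independent replicates). With offsets for GC content, Akt1 (59.7% GC) had a fold change of −0.35 and Irs2 (56.6% GC) of −1.04, where the median of all genes was −0.13.

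**Figure D4:**
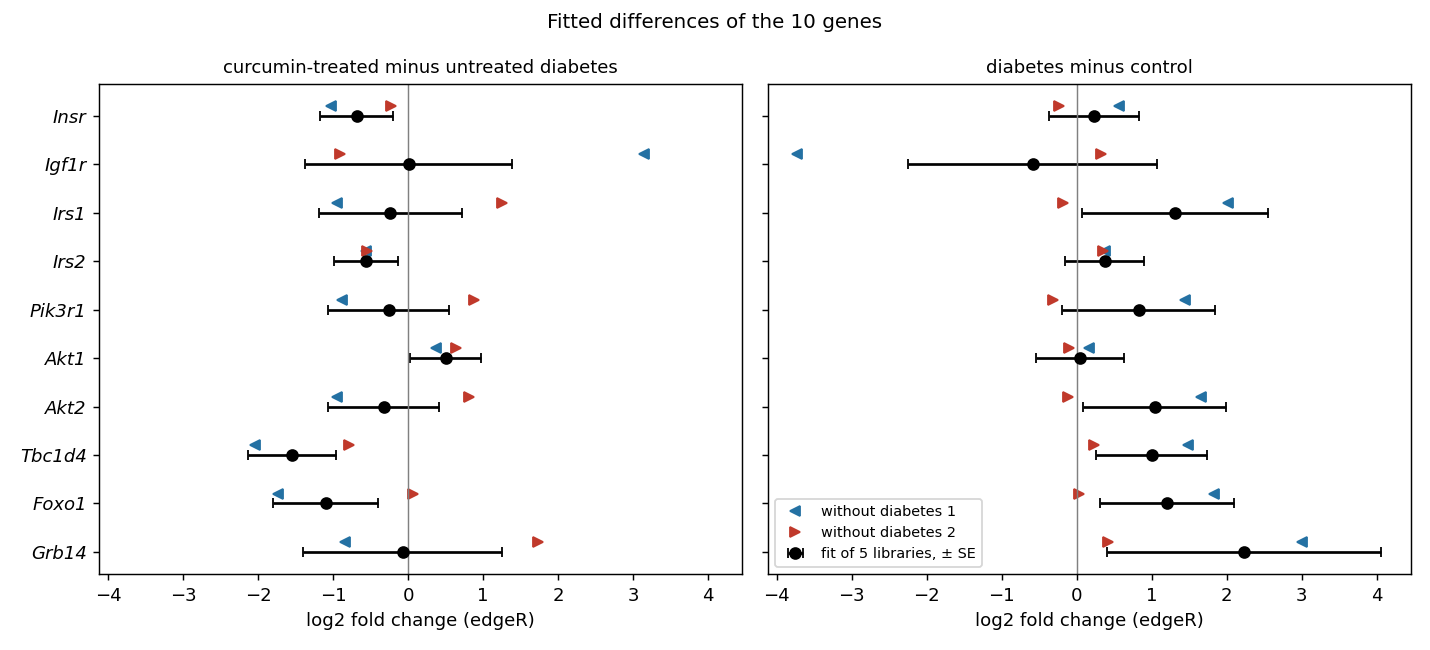
Fitted log2 fold changes of the 10 genes (x axis) for curcumin-treated minus untreated diabetes and for diabetes minus control; black points with bars are the fit of 5 libraries ± SE, blue and red triangles the fits without diabetes 1 and without diabetes 2. The triangles of Irs2 nearly coincide, while those of Igf1r lie at 3.14 and −0.91 in the first comparison and at −3.73 and 0.33 in the second.

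Untreated diabetes was then set against the single control library. Irs2, Tbc1d4 and Grb14 were higher in both diabetic libraries than in the control (3 of 10, against 17.3% of all genes tested). Akt1 was lower in both (1 of 10, against 34.5%). For each of these genes the 95% Poisson interval of 1 diabetic library overlapped that of the control. That library was diabetes 2 for Irs2 and Akt1, and diabetes 1 for Tbc1d4 and Grb14. With TMM factors Akt1 no longer lay below the control in both diabetic libraries, and Foxo1 lay above it in both. The fitted log2 fold change was 0.37 for Irs2 (SE 0.53), 1.00 for Tbc1d4 (SE 0.74), 2.23 for Grb14 (SE 1.83) and 0.04 for Akt1 (SE 0.58). For all 10 members the adjusted p was 1 in edgeR's quasi-likelihood test, so none passed.

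The other members stood at 1.31 for Irs1 (SE 1.24), 1.20 for Foxo1 (SE 0.89), 1.04 for Akt2 (SE 0.96), 0.83 for Pik3r1 (SE 1.02), 0.22 for Insr (SE 0.60) and −0.59 for Igf1r (SE 1.66), in log2 fold change. Positive values held for 9 of 10, against 52.4% of all genes, and the median was 0.91 against 0.07. Over all genes edgeR called 0 (0.0%), with 441 (1.48%) at an unadjusted p under 0.05 and no member among them. limma-voom called 0 (0.0%). DESeq2 called 56 (0.188% of all genes tested), again no member, and gave no adjusted p for 6946 genes. Without diabetes 2, the values fell to 0.36 for Irs2, 0.23 for Tbc1d4, 0.41 for Grb14 and 0.03 for Foxo1, and Irs1 (−0.18), Pik3r1 (−0.32), Akt2 (−0.11), Insr (−0.24) and Akt1 (−0.11) became negative while Igf1r (0.33) became positive. Without diabetes 1, Igf1r stood at −3.73 and Grb14 at 3.00. Both comparisons share the diabetic libraries, so their values are not independent of each other.

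Other genes of insulin and IGF signalling were read from a list of 76, of which 75 were tested and none was called in either comparison. With curcumin 45 of 75 had a negative fitted fold change and 30 a positive one (median −0.08, against 0.05 for all genes). With diabetes 48 were positive and 27 negative (median 0.36, against 0.07).

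Among the ligands, Igf1, the growth factor that activates Igf1r, was at 18.8 CPM in control 1, 18.5 and 271 CPM in diabetes 1 and 2, and 40.3 and 23.9 CPM in the curcumin-treated pair. Its high value came from diabetes 2, the library in which Igf1r was lowest. The log2 fold change of Igf1 was −2.29 with curcumin (SE 1.25) and 3.18 with diabetes (SE 1.73). Igf2 had at most 9 counts in any library and was not tested. Of the IGF binding proteins, Igfbp2 was at 51.5 CPM in control 1, 11.6 and 0.827 CPM in the diabetic pair and 19.1 and 40.2 CPM in the curcumin-treated pair, lower in both diabetic libraries than in the other 3. Its log2 fold change was −3.0 with diabetes (SE 1.38) and 2.38 with curcumin (SE 1.22). Igfbp3 stood at −1.37 with diabetes (SE 0.74), from 65 CPM in control 1 and 13.9 and 30.4 CPM in the diabetic libraries.

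Sh2b2, an adaptor of the insulin receptor also called APS, was at 34.2 CPM in diabetes 2 and 1.57 to 2.73 CPM elsewhere. Its log2 fold change was −2.98 with curcumin (SE 1.48) and 3.69 with diabetes (SE 2.06). Grb10, the closest relative of Grb14, was at 47.9 CPM in diabetes 2 and 5.30 to 16.1 CPM elsewhere (−1.33 with curcumin, SE 1.12). Socs1, which marks the substrates for degradation, was at 20.4 CPM in curcumin-treated 1 and 0.943 to 2.92 CPM elsewhere (3.35 with curcumin, SE 1.24). Socs3, of the same family, had 0 counts in diabetes 1 and 2.89 to 10.8 CPM in the others. The limit for counting error alone is 0.118 CPM in diabetes 1, the library with the fewest genes at 1 to 5 counts. The phosphatase Ptpn1, which removes phosphate from the receptor, ran from 48.8 to 69.2 CPM (0.09 with curcumin, SE 0.44).

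Of the phosphoinositide 3-kinase genes, the catalytic subunit Pik3cb was at 16.3 CPM in control 1, 21.7 and 41.5 CPM in the diabetic pair and 11.9 and 11.4 CPM in the curcumin-treated pair, with no overlap between diabetes and curcumin (log2 fold change −1.48, SE 0.59). Of all 75 pathway genes, 10 lay lower in both curcumin-treated libraries than in both diabetic ones (13.3%, against 9.72% of all genes) and 9 higher (12.0%, against 17.9%).

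Downstream, Slc2a4, the insulin-responsive glucose transporter whose vesicles Tbc1d4 restrains, was at 15.5 CPM in control 1, 4.71 and 86.3 CPM in the diabetic pair and 212 and 9.55 CPM in the curcumin-treated pair. Its highest library was the one rich in smooth muscle and also in skeletal muscle genes (0.137% of counts, against at most 0.00977% elsewhere), whose part in the level was not tested. Eif4ebp1, a translation inhibitor controlled by mTORC1, was at 172 CPM in diabetes 2, 46.3 CPM in curcumin-treated 1 and 6.17 to 10.4 CPM elsewhere (3.73 with diabetes, SE 2.22). Fbxo32, a FoxO target in muscle, was at 197 CPM in curcumin-treated 1 and 19.4 to 42.5 CPM elsewhere (2.19 with curcumin, SE 0.92).

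Foxo6, a relative of Foxo1, had 0 counts in both diabetic libraries. It was at 1.92 CPM in control 1 and at 9.20 and 2.64 CPM with curcumin. Against a floor of 3 counts per library, its curcumin mean was 50.2-fold higher than in diabetes and the control 16.3-fold higher. The adjusted p was 0.852 and 1 in edgeR. That floor covers counting error only, and diabetes 1 held few genes at low counts (1292 at 1 to 5 counts). The folds are therefore not lower limits. Foxo6 and Socs1 were the pathway genes at an unadjusted p under 0.05 with curcumin (2 of 75, against 2.34% of all genes), and Foxo6 with diabetes (1 of 75, against 1.48%).

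**Figure D5:**
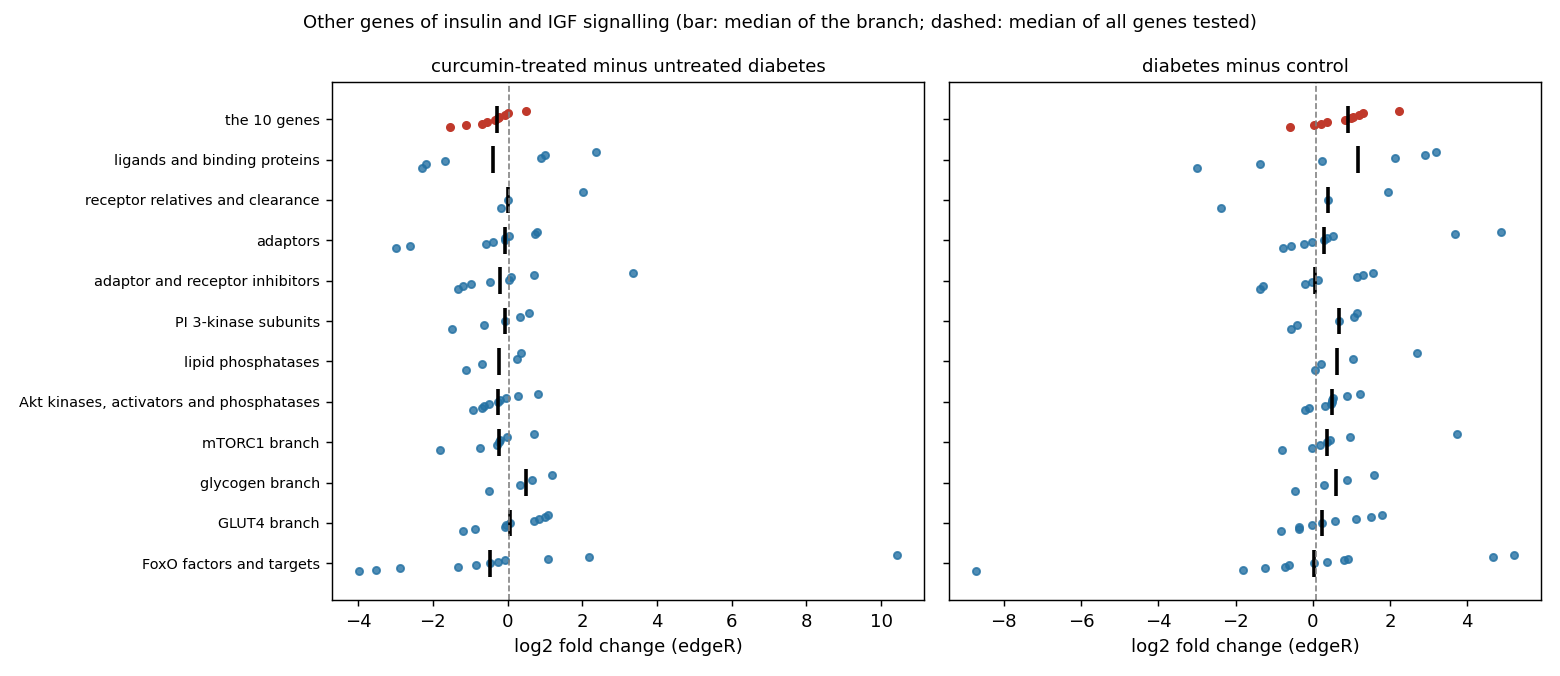
Fitted log2 fold change (x axis) of the 75 tested pathway genes by branch (blue) and of the 10 genes (red) for both comparisons; bars are medians and the dashed line the median of all genes tested. The points farthest out are Foxo6, whose fitted value depends on the prior count because both diabetic libraries are at 0.

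Genes with the pattern most like a member were found by the root mean square difference of centred log2 CPM over the 5 libraries, among 15153 named genes. Nearest to Igf1r were Mtus2 (0.129), Dnajc10 (0.169), a protein disulfide reductase of the endoplasmic reticulum, and Ddc (0.170), the aromatic amino acid decarboxylase. Dnajc10 ran from 72.3 CPM in diabetes 2 to 1187 CPM in diabetes 1. Nearest to Tbc1d4 were Rb1 (0.0756), the retinoblastoma protein, Tgoln1 (0.0829) and Pik3cb (0.0862), which is itself a pathway gene. Irs2 was followed most closely by Cog6 (0.0414), a Golgi tethering subunit, Usp12 (0.0491) and Nploc4 (0.050), and Grb14 by Gbp5 (0.0915), an interferon-induced GTPase, Mgat4a (0.111) and Sh3bgrl (0.148). The nearest genes to Grb14 shared its high values in diabetes 2 and curcumin-treated 1, as Mgat4a did at 27.6 and 26.4 CPM against 3.21 to 5.34 CPM elsewhere.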

How the data were processed

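The authors deposited whole-number counts per Ensembl gene, not normalised. Per the labels' protocols the libraries were poly-A selected with a strand-marking kit and read as paired ends. FastQC, featureCounts and the build GRCm39 are named per the submitters' processing notes; no source used here gives the aligner, annotation release or strand setting of the counting. Symbols were matched by gene ID for 51486 of 78334 genes (65.7%), which held 95.3% to 98.5% of counts. Transcript length and GC content came from GENCODE vM21 (GRCm38), and promoter windows from RefSeq; no coordinate of the counted build was used.

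The 10 members and the pathway and marker lists were chosen with earlier results of these data known. Both comparisons were fitted to the whole table in a single model of 5 libraries with edgeR 4.0.16 in R 4.3.3 (filterByExpr, TMM, robust quasi-likelihood test with the newer dispersion method, two-sided, Benjamini-Hochberg adjustment, threshold 0.05, prior count 0.125). It had 2 residual degrees of freedom and a biological coefficient of variation of 1.09, and its shared dispersion stood in for a spread of the control. The SE was the log2 fold change divided by sqrt(F). Poisson and floor limits (3 counts at 0) cover counting error only, since reads have no molecular identifiers. Named pathway genes were the 3 with the smallest p per direction and comparison plus 7 set by name, 1 of which is not reported here; likeness used log2(CPM + 0.5) and genes with a mean of at least 1. Alternatives were other scalings, no filter, DESeq2 1.42.0, limma-voom (limma 3.58.1), GC offsets in 20 bins, a replicate block, 4 libraries, and leaving out each diabetic or curcumin-treated library. Same-numbered diabetic and curcumin-treated libraries deviated in opposite directions (correlation −0.41 across genes), so the numbers were not taken as pairs.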

Additional observations from a re-analysis of the deposited data

How the results depend on the processing

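No alternative called a member in either comparison, so the alternatives bear on counts over all genes and on signs. The count of genes called was 0 in every fit but DESeq2's, which called 95 genes for curcumin and 56 for diabetes; the cause was not tested. The replicate block also left 0 called genes (217 for curcumin and 47 for diabetes had an unadjusted p under 0.05) and put the all-gene median of the curcumin difference at 0.21, against 0.05, and a crossed pairing over 4 libraries, chosen after seeing the data, also called 0. Under settings that kept all libraries of a comparison, 178 member values kept their sign and 12 did not. Igf1r with curcumin, at 0.01, was −0.051 with RLE factors, −0.051 with DESeq2, −0.15 with library totals, −0.25 with GC offsets and −0.037 in 4 libraries. Grb14 with curcumin was 0.092 with library totals and 0.078 with GC offsets. Akt1 with curcumin was −0.35 with GC offsets, without or with the replicate block (−0.35), and Akt1 with diabetes, at 0.04, was −0.11 with library totals, 0.64 with GC offsets and 0.65 with GC offsets and the block. Insr with diabetes was −0.039 with the replicate block and −0.13 with GC offsets and the block. The cause was not tested. Leaving out each replicated library moved the curcumin log2 fold change from −1.69 to 3.14 for Igf1r, −1.21 to 1.25 for Irs1, −1.15 to 0.88 for Pik3r1, −0.95 to 0.81 for Akt2, −1.73 to 0.069 for Foxo1 and −2.47 to 1.74 for Grb14, and kept the sign of Insr (−1.03 to −0.22), Irs2 (−0.60 to −0.54), Akt1 (0.22 to 0.72) and Tbc1d4 (−2.04 to −0.79). For diabetes it moved Insr from −0.24 to 0.56, Igf1r from −3.73 to 0.33, Irs1 from −0.18 to 2.02, Pik3r1 from −0.32 to 1.45, Akt1 from −0.11 to 0.17 and Akt2 from −0.11 to 1.66. TMM scaling moved 8 of the group means of CPM by more than the spread of the group or the counting interval, and 22 by less. The fewest counts of a member were the 73 of Grb14 in control 1. Its 95% Poisson interval there overlapped those of diabetes 1 and curcumin-treated 2.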
